A study of Mus musculus with 12 samples.

Results

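Ptgs2 and 9 genes of chemokine and inflammatory cytokine signaling were followed in C2C12 myotubes exposed to BAM15. The members are Ptgs2, Ptges, Cxcl1, Cxcl5, Cxcl12, Ccl2, Ccl7, Il6, Lif and Cmklr1, picked by name with earlier results of the same comparison known. Of these 10 genes, 9 had a row among the 15113 genes of the count table, and 8 passed the filter on low counts that left 12730 genes to test. Ptges, a prostaglandin E synthase, was not analysed here, and Lif had too few counts to test. BAM15 is a small protonophore that uncouples mitochondria, and C2C12 are mouse myoblasts of an established line, which form multinucleated myotubes after a switch to medium low in serum. The 6 BAM15 libraries came from differentiated myotubes given 20 μM BAM15 in DMSO for 16 h, and the 6 vehicle libraries from myotubes of the same line given vehicle for as long. No genetic change separates the groups. All cells were of this one line in culture, so no immune cells, vessels or other tissue surrounded the myotubes.

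Ptgs2 encodes the inducible cyclooxygenase, which turns arachidonic acid released from membranes into the precursor of the prostaglandins. Chemokines of the CXC class such as CXCL1 and CXCL5 attract neutrophils through the receptor CXCR2, those of the CC class such as CCL2 and CCL7 attract monocytes through CCR2, and CXCL12 acts on CXCR4. IL-6 and LIF belong to one cytokine family that signals through gp130, the product of Il6st, and CMKLR1 is a receptor for chemerin. Skeletal muscle cells release several of these factors, and many of the corresponding mRNAs are held short-lived by AU-rich elements in the 3′ UTR, while their promoters often carry NF-kB, C/EBP, CRE or AP-1 sites.

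The members sit at scattered places in the mouse genome, with a pair of exceptions. On GRCm38, Ptgs2 lies on chromosome 1 (150100031 to 150108227), Il6 on chromosome 5 (30013114 to 30019981), Cxcl12 on chromosome 6 (117168535 to 117181367) and Cmklr1 on chromosome 5 (113612354 to 113650426). Cxcl5 (90759360 to 90761624) and Cxcl1 (90891241 to 90893115) belong to the CXC cluster of chromosome 5, and Ccl2 (82035571 to 82037453) and Ccl7 (82045712 to 82047525) are neighbours on chromosome 11. Lif lies elsewhere on chromosome 11 (4257557 to 4272514). All are annotated as protein-coding genes. No window of 50 bases in the last 400 bases of their transcripts, where the 3′ reads of this library type fall, occurred in a transcript of another gene.

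Promoter sequences of 250 bases before to 50 after the start site were at hand from RefSeq (GRCm38.p6) for 7 of the 10 members, and not for Cxcl5, Ccl2 and Ccl7. The promoters of Ptgs2, Cxcl1 and Il6 are shown because these are the enzyme, the chemokine and the cytokine that were higher in every BAM15 library and for which a sequence was at hand. All 3 are on the plus strand, and capitals mark matches to the motifs searched.
Ptgs2, chr1:150099781-150100080: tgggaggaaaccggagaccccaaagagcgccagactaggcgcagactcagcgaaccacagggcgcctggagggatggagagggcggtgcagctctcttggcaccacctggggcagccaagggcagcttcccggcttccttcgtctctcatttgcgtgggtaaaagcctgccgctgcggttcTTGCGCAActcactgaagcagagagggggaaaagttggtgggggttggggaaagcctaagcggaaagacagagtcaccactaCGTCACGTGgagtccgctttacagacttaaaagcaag
Cxcl1, chr5:90890995-90891294: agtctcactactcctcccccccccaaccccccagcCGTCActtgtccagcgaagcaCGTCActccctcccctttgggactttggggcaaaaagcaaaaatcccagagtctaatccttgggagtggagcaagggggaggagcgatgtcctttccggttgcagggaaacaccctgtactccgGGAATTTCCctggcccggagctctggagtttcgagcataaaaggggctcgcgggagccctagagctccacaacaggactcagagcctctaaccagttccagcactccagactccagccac
Il6, chr5:30012864-30013163: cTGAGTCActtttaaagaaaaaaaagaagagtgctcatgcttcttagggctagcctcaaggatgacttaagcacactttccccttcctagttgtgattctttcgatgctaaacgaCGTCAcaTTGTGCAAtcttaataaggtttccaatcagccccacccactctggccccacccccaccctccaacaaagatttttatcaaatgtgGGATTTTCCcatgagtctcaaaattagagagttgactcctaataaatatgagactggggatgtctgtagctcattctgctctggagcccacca
The motifs, searched on both strands, were kB-like (GGANTTTCC), CRE (TGACGTCA) and its shorter form (TGACG), E-box (CACGTG), C/EBP-like (TTNNGCAA), AP-1-like (TGANTCA), CARE-like (TGATGNAA) and TATA box (TATAAA). The full CRE holds the shorter form. With the start site as 0, the Ptgs2 promoter held a C/EBP-like match from -69 to -62, and a TGACG match (13 to 17, read on the minus strand) that overlapped an E-box (16 to 21). Cxcl1 held a kB-like match from -70 to -62 and 2 TGACG matches on the minus strand. Il6 held a kB-like match from -43 to -35, a C/EBP-like match from -128 to -121, a TGACG match and an AP-1-like match. Of 32851 promoters of the same length, 1.25% held the kB-like letters, 10.8% the C/EBP-like, 20.8% TGACG, 7.15% the E-box and 7.81% the AP-1-like letters. The kB-like letters were thus the rarest of those found, and they stood in Cxcl1 and Il6. Among the other promoters, Cmklr1 held an E-box, Cxcl12 a TGACG match and Lif an AP-1-like match. The full CRE (1.79% of promoters), the CARE-like (3.97%) and the TATA letters (13.6%) were found in none of the 7 windows.

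Close to the stop codon, the 3′ UTRs set the same 3 genes apart from the other members in their AU-rich pentamers. In the first 200 bases after the stop codon, Ptgs2 held 7 copies of ATTTA, Cxcl1 held 5 and Il6 held 4, overlapping copies included. Stretches of 30 bases are shown for these genes, with the pentamers in capitals.
Ptgs2, bases 12 to 41 after the stop codon: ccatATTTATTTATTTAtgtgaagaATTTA
Cxcl1, bases 79 to 108: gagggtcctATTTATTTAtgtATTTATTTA
Il6, bases 129 to 158: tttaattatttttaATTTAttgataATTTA
Among the 10347 tested genes with a 3′ UTR of at least this length, 21.9% held at least 1 pentamer and 0.976% held 3 or more. No tested gene held more than Ptgs2, 0.0483% held more than Cxcl1 and 0.0677% held more than Il6. Cxcl5, Cxcl12, Ccl2 and Ccl7 held 1 each, and Ptges, Lif and Cmklr1 held 0. Over the whole UTR, Ptgs2 held 14, Cxcl1 held 7, Il6 held 6, Cxcl5 held 5 and Lif held 7, all farther along. Cxcl1 and Il6 thus stood apart only within the first 200 bases. These are counts of letters, and mRNA stability was not measured.

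**Figure D1:**
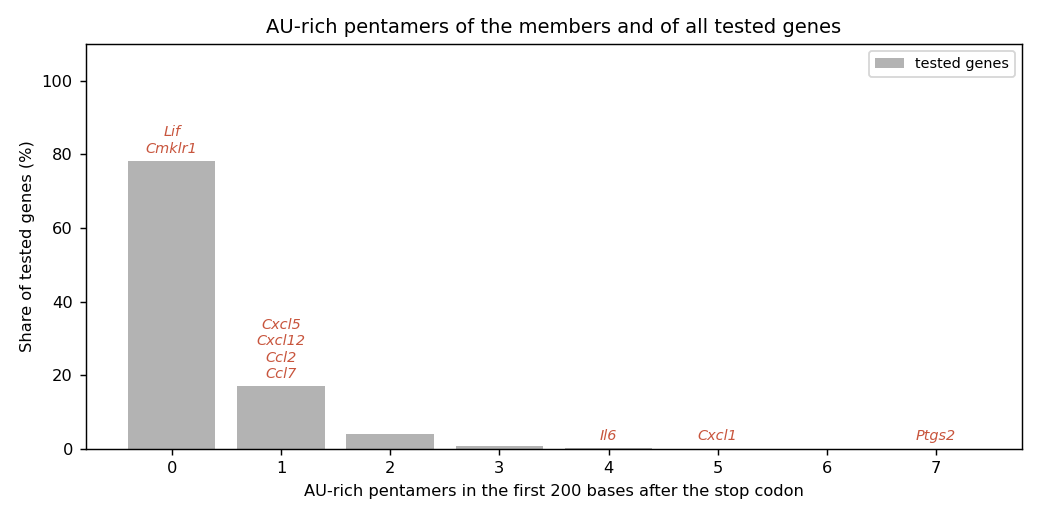
Share of tested genes (y axis, %) by number of AU-rich pentamers in the first 200 bases after the stop codon (x axis), with the 9 analysed members named above the bar of their own count. Ptgs2 (7), Cxcl1 (5) and Il6 (4) stand in the sparse right tail, whereas Cxcl5, Cxcl12, Ccl2 and Ccl7 stand at 1 and Lif and Cmklr1 at 0.

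Libraries were prepared from poly(A)-primed cDNA, which places reads close to 3′ ends, and longer transcripts therefore do not collect more reads. Between 13983725 and 18751780 reads per BAM15 library and between 15299135 and 18866728 per vehicle library were counted on genes. Values below are normalized counts, which are reads scaled by library size and the TMM method. All 25 myotube markers were detected, with a summed level of 44848 to 50734 CPM (counts scaled to the library total) with vehicle and 39492 to 47390 with BAM15. Of 20 leukocyte markers, 6 had a row and 1, Cd68, had enough counts to test. Their sum was 1.59 to 3.00 CPM with vehicle and 4.01 to 5.41 with BAM15, and Cd68 alone was higher. The other 5 (Itgam, Csf1r, Lyz2, Cd163 and Mrc1) averaged at most 7.48 normalized counts with vehicle, had lower means with BAM15 and overlapping groups, and were not tested. Adipocyte and endothelial marker sums stayed below 1 CPM in every library. The sum of undifferentiated myoblast markers was 883 to 945 CPM with vehicle and 555 to 593 with BAM15. Of 13 tested markers of this list, 6 fell (Mki67, Top2a, Ccnd1, Sdc4, Id2 and Myod1) and 2 rose (Myf5 and Hmga2) past the thresholds given below, and their part in the lower values of Cmklr1, Cxcl12 and Cxcr4 was not tested. The BAM15 libraries with numbers 4 to 6 had another myotube sum than numbers 1 to 3 (39492 to 41501 against 44511 to 47390) and another fibroblast marker sum (2029 to 2531 against 1639 to 1747, with 2515 to 2937 in vehicle). What the numbers stand for is not given in the labels, so member values are also given within each set. Nothing in the labels says that libraries of a condition came from separate cultures, so p-values measure the spread between these libraries, which may be technical.

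A gene was called when it passed the thresholds of the study's methods, which were an adjusted p-value below 0.01, a mean above 50 normalized counts over all 12 libraries (base mean) and a change of more than 2-fold. Of the 12730 tested genes, 471 (3.70%) were called higher with BAM15 and 456 (3.58%) were called lower. Every BAM15 library lay above every vehicle library in 17.1% of tested genes, and every one lay below in 17.0%. Counts in the gene lists below are to be set beside these shares, and no set test was run. For list counts at an unadjusted p below 0.05 no share over all tested genes is given, so nothing is read from them. Among the members, 3 were called higher (Ptgs2, Cxcl5 and Ccl7) and 2 lower (Cxcl12 and Cmklr1). The members were picked from this very comparison, so nothing is read from these counts, and the members' values below are a description without a test. In bulk RNA, fewer cells of a type and less RNA per cell cannot be told apart. Just inside the thresholds stood Ccl7, with a base mean of 66.1, and Cxcl12, with a log2 fold change of -1.19. Cxcl1 and Il6 were not called, since their base means of 25.5 and 12.2 lay well under the threshold of 50.

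**Figure D2:**
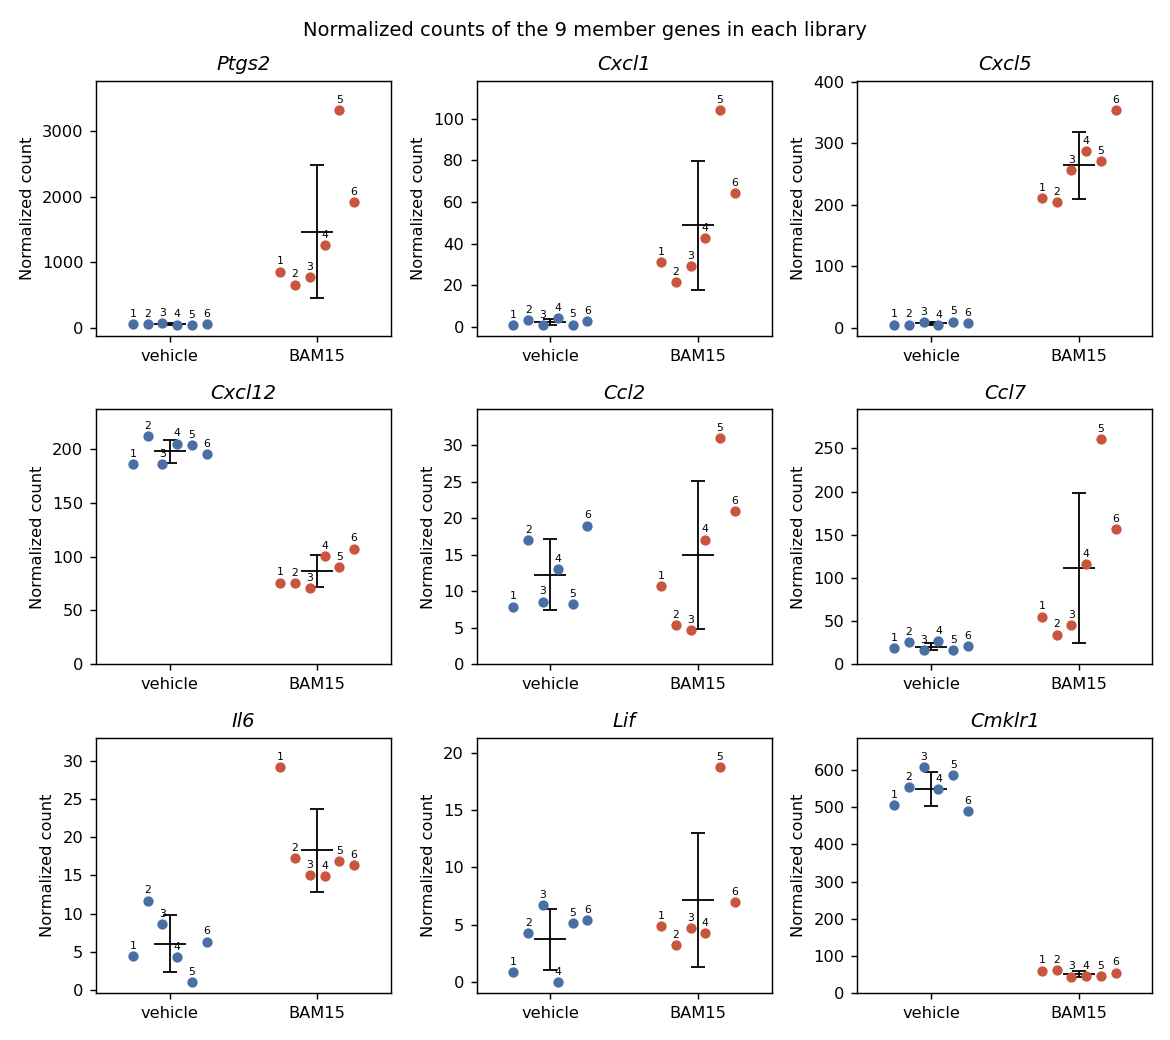
Normalized counts (y axis, linear, each panel with its own scale) of the 9 analysed members in the 6 vehicle (blue) and 6 BAM15 (red) libraries, each point marked with its library number; the black bar is the mean and SD. The groups do not overlap for Ptgs2, Cxcl1, Cxcl5, Ccl7 and Il6, which are higher with BAM15, nor for Cxcl12 and Cmklr1, which are lower, and they overlap for Ccl2 and Lif.

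Ptgs2 had the widest range of counts among the members. With vehicle its normalized counts ranged from 39.2 to 76.4, with a median of 54.4. With BAM15 they were 857, 659, 773, 1263, 3317 and 1919 in libraries 1 to 6. All BAM15 libraries lay far above all vehicle libraries, but the highest was 5.03 times the lowest, against 1.95 times with vehicle. The group means were 1465 ± 1017 with BAM15 and 54.9 ± 12.3 with vehicle (SD, n = 6 each), a ratio of 26.7 and a log2 fold change of 4.73 (SE 0.45). On the log2 scale the SD among BAM15 libraries was 0.89, and 1.35% of the 10470 tested genes with a base mean above 50 had a larger one. Among vehicle libraries it was 0.30, with 5.19% of genes larger.

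The steps around PTGS2 in prostaglandin synthesis were taken from a list of 22 genes without the members, of which 14 were tested. Of these, 3 rose (Abcc4, Pla2g4a and Akr1b3) and 0 fell past the thresholds, with a median log2 fold change over the list of 0.15 against 0.02 over all tested genes. At an unadjusted p below 0.05, 7 were higher and 3 lower, and DESeq2 called the same numbers, 3 and 0. Pla2g4a, the cytosolic phospholipase A2 that releases arachidonic acid, rose from 105 ± 14.4 to 643 ± 129 normalized counts (log2 fold change 2.61, SE 0.14, Benjamini-Hochberg adjusted p = 8.61e-10 by edgeR's quasi-likelihood test). Among its BAM15 libraries, 5 (515) and 6 (449) were the lowest, which are the libraries in which Ptgs2 was highest. Lower values in the later numbers were common, with BAM15 libraries 4 to 6 all below 1 to 3 in 31.6% of tested genes with a base mean above 50. Abcc4, a transporter that can carry prostaglandins out of cells, rose from 56.0 ± 10.2 to 410 ± 32.7 (log2 fold change 2.87, SE 0.11, adjusted p = 2.03e-11 by the same test of edgeR). Both had 6 of 6 BAM15 libraries above every vehicle library. Akr1b3, an aldose reductase with prostaglandin F synthase activity, rose from 47.7 ± 8.72 to 102 ± 42.3 (log2 fold change 1.10, adjusted p = 0.00136, edgeR), and its BAM15 libraries ranged from 56.3 to 170. It was no longer called without BAM15 library 5 (log2 fold change 0.89) or within library numbers 1 to 3 (0.73).

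Ptgs1, the constitutive cyclooxygenase, had 1721 ± 67.3 normalized counts with vehicle and 2320 ± 318 with BAM15, a log2 fold change of 0.43 that stayed under 2-fold (Benjamini-Hochberg adjusted p = 3.79e-04 by edgeR's quasi-likelihood test). Its BAM15 libraries ranged from 1877 to 2628 with libraries 5 and 6 the lowest, as for Pla2g4a. Ptgis, the prostacyclin synthase, had 1765 ± 120 with vehicle and 1175 ± 101 with BAM15, a decrease under 2-fold without overlap of the groups (log2 fold change -0.59, adjusted p = 2.69e-06, edgeR), and it is named here after its values were seen. Hpgd, which inactivates prostaglandins, was too low to test at 2.26 ± 1.28 with vehicle and 2.88 ± 2.11 with BAM15.

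On the receptor side, 4 of 9 prostanoid receptor genes were tested and 1 of them, Ptger4, fell. Ptger4 encodes the prostaglandin E2 receptor EP4, and its normalized counts dropped from 376 ± 29.4 to 152 ± 19.9 (log2 fold change -1.31, Benjamini-Hochberg adjusted p = 1.68e-08 by edgeR's quasi-likelihood test). All 6 BAM15 libraries lay below all vehicle libraries. Ptger1, the gene of receptor EP1, had 17.3 ± 4.45 with vehicle and 8.92 ± 4.98 with BAM15, and its groups overlapped (adjusted p = 0.0161, edgeR, and 0.00121 without BAM15 library 2, over alternatives that spanned 0.00121 to 0.0569). Ptger2 and Ptger3 were not analysed here. Of the leukotriene and lipoxygenase list, 3 genes were tested and 1 fell, Alox5ap, which presents arachidonic acid to 5-lipoxygenase (132 ± 13.0 to 54.7 ± 3.20, log2 fold change -1.27, adjusted p = 3.65e-08, edgeR).

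Cxcl5 and Cxcl1, the CXC chemokines that act on neutrophils, were both near the floor with vehicle. Cxcl5 ranged from 4.33 to 10.3 normalized counts with vehicle (median 6.73) and was 211, 204, 256, 287, 271 and 354 in BAM15 libraries 1 to 6. Its groups stood far apart and its BAM15 libraries were close to each other. The means were 7.16 ± 2.51 and 264 ± 55.0, a ratio of 36.9 and a log2 fold change of 5.17 (SE 0.21), the largest among the 8 tested members. Cxcl1 had 1 to 4 reads per vehicle library, 13 in all, and 20 to 111 reads per BAM15 library. Its normalized counts with BAM15 were 31.1, 21.6, 29.1, 42.7, 104 and 64.2, against 0.880 to 4.33 with vehicle, so that the groups did not overlap. Its log2 fold change of 4.44 (SE 0.52) rests on those 13 vehicle reads.

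Ppbp, another CXC gene that lies between Cxcl5 and Cxcl1 (chromosome 5, 90768518 to 90770063), had 0 reads in all 6 vehicle libraries and 3 to 13 in each BAM15 library. It was not tested, and against a floor of 3 reads per vehicle library its mean of 8.83 ± 3.55 normalized counts was at least 2.98-fold higher with BAM15. Of the 12 listed CXC ligands besides the members, 7 had a row and none had enough counts to test. Cxcl2, Cxcl3 and Pf4 of the same cluster, and the receptor gene Cxcr2, were not analysed here.

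Ccl7 and Ccl2, the neighbouring CC chemokine genes, differed from each other. Ccl7 ranged from 16.2 to 27.1 normalized counts with vehicle (median 19.6) and was 55.3, 34.6, 45.1, 116, 261 and 156 in BAM15 libraries 1 to 6. All BAM15 libraries lay above all vehicle libraries, and the highest was 7.55 times the lowest. The means were 20.8 ± 4.61 and 111 ± 87.0, with a log2 fold change of 2.43 (SE 0.49). Ccl2 ranged from 7.92 to 19 with vehicle and was 10.7, 5.40, 4.70, 17.1, 31.0 and 21 with BAM15. Its groups overlapped on both sides, with means of 12.3 ± 4.83 and 15.0 ± 10.1 and a log2 fold change of 0.28 (SE 0.42). Both genes were highest in BAM15 library 5 and lowest in libraries 2 and 3.

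Ccl8, another monocyte chemokine of the chromosome 11 cluster (82115185 to 82116799), had 66.8 ± 12.1 with vehicle and 83.7 ± 14.3 with BAM15 (log2 fold change 0.33, Benjamini-Hochberg adjusted p = 0.0710 by edgeR's quasi-likelihood test). In contrast to Ccl7 its highest BAM15 value, 109, was in library 2 and its lowest, 71.2, in library 6. Of the 21 other CC, CX3C and XC ligands, 5 were tested and edgeR called 0, with 3 higher and 0 lower at an unadjusted p below 0.05, and DESeq2 called 0 as well. Ccl11, Ccl12 and the receptor gene Ccr2 were not analysed here.

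Cxcl12 was the chemokine among the members with lower counts in every BAM15 library. Cxcl12, a chemokine that guides progenitor and stem cells, ranged from 185 to 212 normalized counts with vehicle (median 199) and from 70.5 to 107 with BAM15 (median 82.9). The groups were well separated, with means of 198 ± 10.7 and 86.6 ± 15.0 and a log2 fold change of -1.19 (SE 0.11). Cxcr4, its signaling receptor, fell from 470 ± 41.7 to 126 ± 19.6 (log2 fold change -1.90, SE 0.11, Benjamini-Hochberg adjusted p = 9.65e-10 by edgeR's quasi-likelihood test). Ackr3, its scavenging receptor, had 262 ± 19.7 with vehicle and 135 ± 30.7 with BAM15 and missed the 2-fold threshold (log2 fold change -0.95, adjusted p = 1.76e-05, edgeR). For both receptors 6 of 6 BAM15 libraries lay below all vehicle libraries. Of 6 tested chemokine receptors, 1 was called lower (Cxcr4) and 0 higher, with a median log2 fold change of -1.14.

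Cmklr1, the chemerin receptor, was the member with the lowest ratio of BAM15 to vehicle, and its BAM15 libraries varied least on the log2 scale (SD 0.22). It ranged from 490 to 608 normalized counts with vehicle (median 552) and from 44.2 to 61.6 with BAM15 (median 50.0). The groups were far apart, with means of 549 ± 45.2 and 51.8 ± 8.09 and a log2 fold change of -3.41 (SE 0.10). Rarres2, which encodes chemerin itself, was low, with 40.3 ± 12.3 with vehicle and 19.8 ± 7.20 with BAM15 (log2 fold change -1.03, Benjamini-Hochberg adjusted p = 0.00478 by edgeR's quasi-likelihood test). Its groups overlapped, its base mean missed the threshold, and its adjusted p rose to 0.0132 without vehicle library 4 and to 0.0126 without vehicle library 5 (0.000725 with DESeq2 to 0.0530 within library numbers 4 to 6 with edgeR, over the alternatives). The other chemerin receptors, Gpr1 and Ccrl2, were not analysed here.

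Il6 and Lif, the cytokines of the gp130 family, were low in both conditions. Il6 ranged from 1.03 to 11.7 normalized counts with vehicle (1 to 11 reads) and was 29.1, 17.3, 15.0, 15.0, 16.9 and 16.3 in BAM15 libraries 1 to 6 (14 to 30 reads). The groups did not overlap, with means of 6.07 ± 3.72 and 18.3 ± 5.40 and a log2 fold change of 1.58 (SE 0.35). Library 1 was the highest, unlike for Ptgs2, Cxcl1, Ccl2 and Ccl7. Lif ranged from 0 to 6.69 with vehicle and from 3.24 to 18.8 with BAM15, where its highest value was in library 5 and the next was 7.0. Its groups overlapped, and with 23 and 43 reads in all it failed the filter on low counts and was not tested.

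The receptors of this family were better covered. Il6st, which encodes the shared subunit gp130, had 1863 ± 120 with vehicle and 3241 ± 168 with BAM15, an increase under 2-fold (log2 fold change 0.80, Benjamini-Hochberg adjusted p = 1.61e-08 by edgeR's quasi-likelihood test). Lifr, the LIF receptor, fell from 810 ± 102 to 353 ± 62.8 (log2 fold change -1.20, SE 0.12, adjusted p = 6.32e-07, edgeR), and within library numbers 1 to 3 it stayed under 2-fold (-0.97). Both had 6 of 6 BAM15 libraries on one side of all vehicle libraries. Il6ra, the IL-6 binding subunit, had 99 ± 11.6 and 89.3 ± 16.3 with overlapping groups (adjusted p = 0.344, edgeR). Of 16 tested receptor and signaling genes of the family, Lifr was the 1 called lower and 0 were called higher. Socs3, a feedback inhibitor of this pathway, had 365 ± 97.5 with vehicle and 262 ± 193 with BAM15 (adjusted p = 0.399, edgeR, and 0.00561 within library numbers 1 to 3, with 0.00561 to 0.833 over the alternatives). Its BAM15 values were 150, 58.3, 104, 284, 531 and 445, so that libraries 1 to 3 lay below every vehicle library and library 5 lay above.

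The same libraries stood high for several members. For Ptgs2, Cxcl1, Ccl2 and Ccl7, 4 of the 8 tested members, library 5 was the highest, library 6 the next and library 4 the next, with libraries 1 to 3 below. This order held in 12.2% of all 12730 tested genes and in 15.3% of the genes called higher. Cxcl5 and Cxcl12 also had libraries 4 to 6 above 1 to 3, in another order. Over the 10470 tested genes with a base mean above 50, libraries 4 to 6 all lay above 1 to 3 in 23.9% with BAM15 and 6.80% with vehicle. They all lay below 1 to 3 in more genes, 31.6% with BAM15 and 8.13% with vehicle. The part of the myotube and fibroblast marker sums in this order was not tested.

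**Figure D3:**
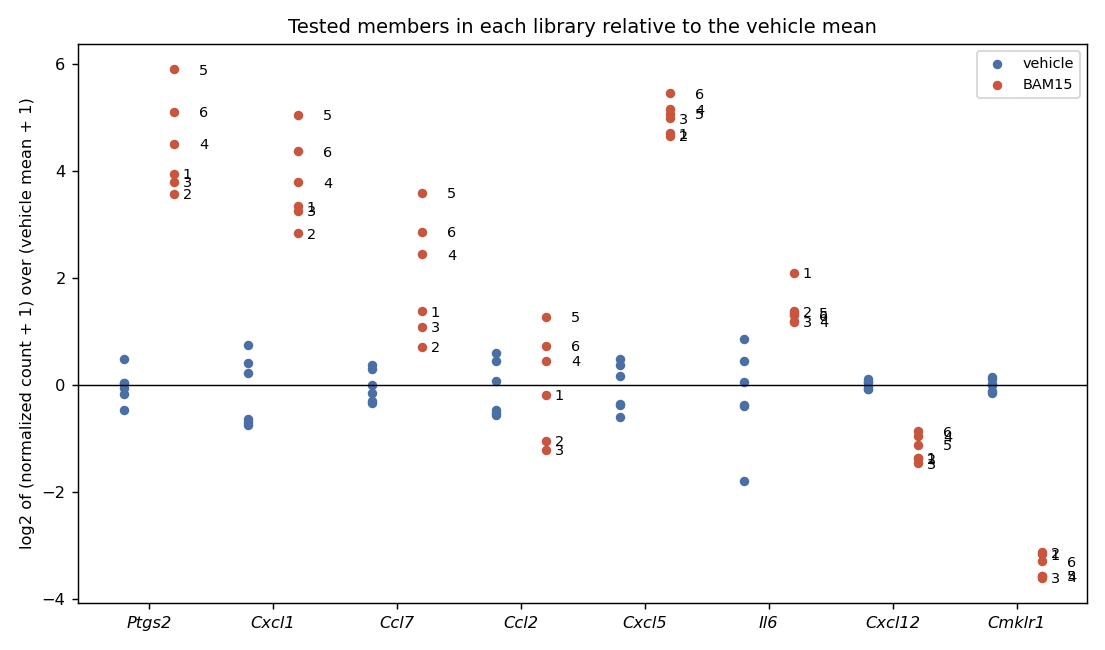
Log2 of the normalized count plus 1 over the vehicle mean plus 1 (y axis) for the 8 tested members (x axis) in vehicle (blue) and BAM15 (red) libraries, with BAM15 libraries marked by number. In Ptgs2, Cxcl1, Ccl7 and Ccl2 library 5 is highest, followed by 6 and 4, with 1 to 3 below, whereas in Il6 library 1 is highest and in Cmklr1 the libraries lie close together.

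Ptgs2 averaged 763 ± 99.5 in BAM15 libraries 1 to 3 and 2166 ± 1049 in libraries 4 to 6 (SD, n = 3 each). Its log2 fold change was 3.62 within libraries numbered 1 to 3 of both conditions, 5.48 within 4 to 6, and 4.31 without BAM15 library 5. The size of the difference thus depended on the libraries and its direction did not. Ccl7 averaged 45.0 ± 10.4 and 178 ± 74.7, with log2 fold changes of 1.17 within 1 to 3, 3.05 within 4 to 6 and 1.96 without BAM15 library 5. Its base mean was 48.1 without BAM15 library 5 and 33.3 within 1 to 3, and in both settings it was no longer called. Ccl2 averaged 6.93 ± 3.27 and 23.0 ± 7.16, against 11.2 ± 5.07 and 13.4 ± 5.38 in the vehicle libraries of the same numbers. Its log2 fold change turned from 0.28 to -0.09 without BAM15 library 5, was 0.76 within 4 to 6, and could not be fitted within 1 to 3, where it failed the filter on low counts.

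The other members moved less between these sets. Cxcl1 had 3.99 within 1 to 3 and 4.66 within 4 to 6 as log2 fold change, and Cxcl5 had 5.03 and 5.28. Il6 had 1.33 and 1.97, Cxcl12 had -1.39 and -1.03, and Cmklr1 had -3.34 and -3.50. These 5 kept the direction of their difference in both sets.

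**Figure D4:**
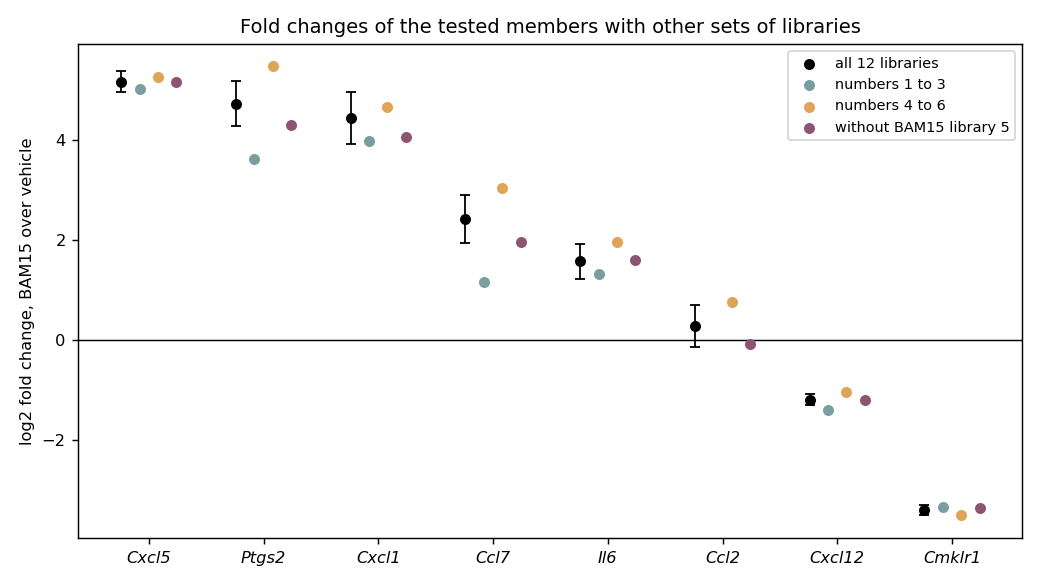
Log2 fold change of BAM15 over vehicle (y axis) for the 8 tested members (x axis), with all 12 libraries (black, bar is the SE), numbers 1 to 3, numbers 4 to 6, and without BAM15 library 5. Ptgs2 spans 3.62 to 5.48 and Ccl7 1.17 to 3.05, whereas Cxcl5 and Cmklr1 hardly move, and Ccl2 lies on both sides of 0.

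The genes with profiles most like Ptgs2 were found by the root mean square difference of log2 CPM over the 12 libraries, each profile centred on its own mean. They were Hspa1b, the inducible HSP70 (0.43), Slc7a11, the cystine transporter (0.52), Ptx3, a secreted pentraxin (0.55), Cth, cystathionine gamma-lyase (0.56), and Entpd2, an ectonucleotidase (0.58). Hspa1b had 217 ± 33.0 normalized counts with vehicle and 5044, 4384, 5342, 9143, 14041 and 10407 in BAM15 libraries 1 to 6, the same order of libraries 5, 6 and 4 as Ptgs2. Slc7a11 and Ptx3 shared that order, and Cth and Entpd2 were highest in library 6. Cxcl5 ranked 8th at 0.60 and Ccl7 92nd at 1.29 among genes with a base mean above 50. The profile of Cmklr1 was nearest to Tk1 (thymidine kinase, 0.16), Pclaf (a PCNA binding factor, 0.21) and Mxd3 (a MAX partner, 0.23). Tk1 had 685 ± 68.8 with vehicle and 69.0 ± 10.7 with BAM15. Nearness to a profile is a description of these 12 libraries, which share the treatment as their main difference.

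Wider inflammatory signaling was read from 16 lists with 311 genes besides the members, of which 184 were tested. Of these, 10 (5.43%) were called higher and 7 (3.80%) lower, beside 3.70% and 3.58% of all tested genes, and the median log2 fold change was 0.11 against 0.02. The lists were chosen with earlier results known, and the shares lie near those of all tested genes.

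**Figure D5:**
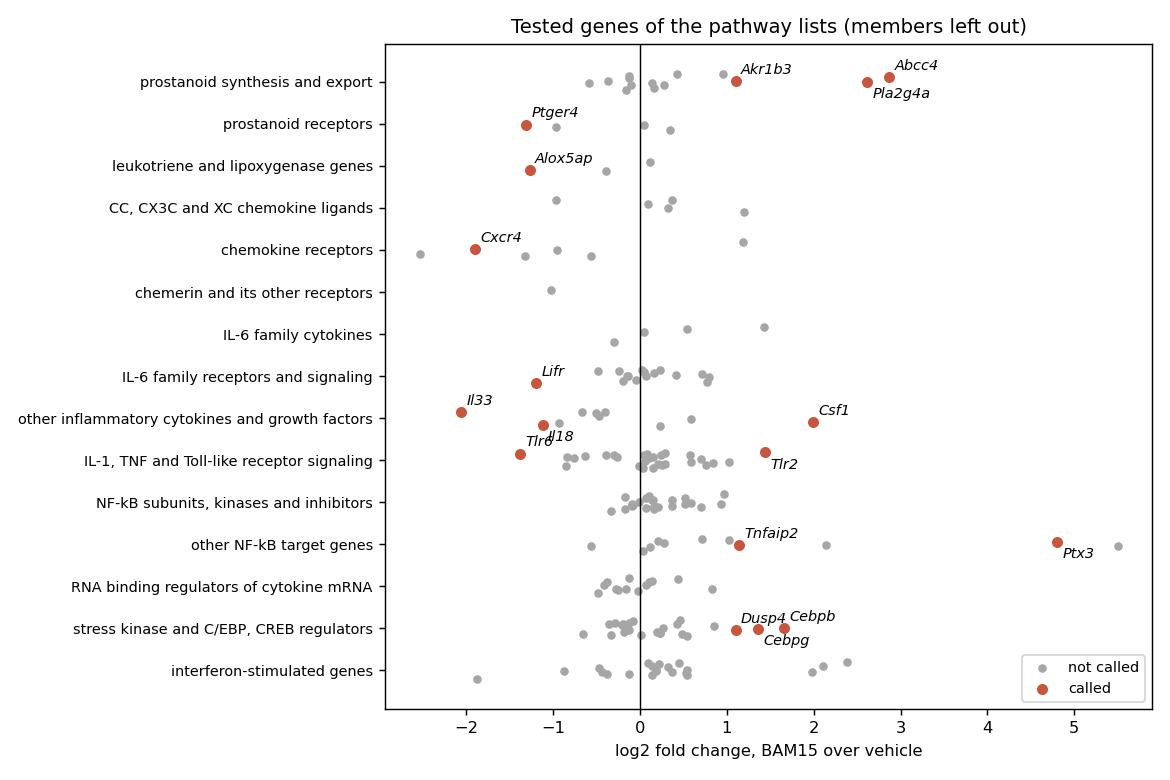
Log2 fold change of BAM15 over vehicle (x axis) of the tested genes in each pathway list (y axis), with the members left out. Red points are genes past the thresholds, 10 higher and 7 lower, and grey points are the other tested genes, among them some with large changes but a base mean under 50; the vertical offset within a list has no meaning.

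Of 23 tested NF-kB subunits, kinases and inhibitors, edgeR called 0 and DESeq2 called 0, with 8 higher and 2 lower at an unadjusted p below 0.05 and a median log2 fold change of 0.15. In 5 of them every BAM15 library lay above every vehicle library, and in 0 below, beside 17.1% and 17.0% of all tested genes. Among these, and named after their values were seen, Relb, a subunit of the noncanonical pathway, had 195 ± 20.3 with vehicle and 372 ± 63.5 with BAM15 (log2 fold change 0.94, adjusted p = 6.51e-06, edgeR). Nfkb2, its partner subunit, had 715 ± 54.9 and 1020 ± 110 (log2 fold change 0.51, adjusted p = 5.09e-05, edgeR). Both stayed under 2-fold, and so did the rest of the 5, which were Nfkbiz (log2 fold change 0.52), Ikbkg (0.38) and Cyld (0.37). Nfkbia, the inhibitor that NF-kB itself induces, had 1361 ± 77.5 with vehicle and 1206 ± 154 with BAM15 (log2 fold change -0.17, Benjamini-Hochberg adjusted p = 0.0777 by edgeR's quasi-likelihood test, and 0.00256 within library numbers 1 to 3, with 0.00256 to 0.328 over the alternatives). Tnfaip3, the feedback inhibitor A20, had 27.5 ± 8.67 and 53.8 ± 30.7 with overlapping groups (log2 fold change 0.97, adjusted p = 0.0263, edgeR). Without BAM15 library 2 its adjusted p was 0.00840 and without library 3 it was 0.00936 (edgeR, 0.00302 to 0.206 over the alternatives), and its highest value, 106, was in library 5. Of 11 other tested NF-kB target genes, 2 rose and 0 fell. Ptx3 rose from 4.76 ± 1.98 to 135 ± 63.9 (log2 fold change 4.80, SE 0.42, adjusted p = 2.77e-07, edgeR), and Tnfaip2 rose from 2612 ± 172 to 5738 ± 426 (log2 fold change 1.14, adjusted p = 8.85e-10, edgeR). Ptx3 had 2 to 7 reads per vehicle library and 44 to 237 per BAM15 library. It thus passed the filter on low counts only through the BAM15 libraries, and nothing is read from its adjusted p or its call.

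The C/EBP and stress kinase list had 25 tested genes, of which 3 rose and 0 fell. Cebpb, a transcription factor of inflammatory and metabolic genes, rose from 304 ± 37.0 to 956 ± 68.1 (log2 fold change 1.65, SE 0.08, Benjamini-Hochberg adjusted p = 2.97e-10 by edgeR's quasi-likelihood test). Its BAM15 libraries lay between 867 and 1046, and library 6 was the lowest, so that it did not share the library order of Ptgs2. Cebpg, a partner of C/EBP factors, rose from 370 ± 36.6 to 947 ± 109 (adjusted p = 5.59e-09, edgeR), and Dusp4, a phosphatase of MAP kinases, rose from 138 ± 19.2 to 296 ± 29.5 (adjusted p = 3.01e-07, edgeR). Both had 6 of 6 BAM15 libraries above every vehicle library.

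RNA-binding regulators of cytokine mRNAs, not all of which act through AU-rich elements, formed a list of 13 tested genes. Of these, edgeR called 0 and DESeq2 called 0, with 2 higher and 6 lower at an unadjusted p below 0.05 and a median log2 fold change of -0.12. Zfp36, which encodes tristetraprolin, a protein that promotes decay of AU-rich mRNAs, had 46.4 ± 12.6 with vehicle and 82.3 ± 15.8 with BAM15, under 2-fold and with overlapping groups (log2 fold change 0.83, Benjamini-Hochberg adjusted p = 9.06e-04 by edgeR's quasi-likelihood test). In 1 of the 13 every BAM15 library lay above every vehicle library, and in 4 below, beside 17.1% and 17.0% of all tested genes. Among the 4, and named after its values were seen, Zfp36l1 had 3204 ± 315 with vehicle and 2287 ± 131 with BAM15 (log2 fold change -0.49).

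Other cytokine genes went in both directions. Of 10 tested inflammatory cytokines and growth factors, 1 rose and 2 fell, with a median log2 fold change of -0.49. Csf1, the macrophage growth factor, rose from 325 ± 33.9 to 1292 ± 417 (log2 fold change 1.99, Benjamini-Hochberg adjusted p = 2.89e-07 by edgeR's quasi-likelihood test), and library 5 was the highest at 2093. Il33, a nuclear alarmin, fell from 341 ± 27.3 to 82.2 ± 16.3 (log2 fold change -2.06, adjusted p = 9.65e-10, edgeR), and Il18, an inflammasome cytokine, fell from 350 ± 19.7 to 161 ± 38.5 (log2 fold change -1.12, adjusted p = 4.22e-06, edgeR; -0.83 within library numbers 1 to 3, under 2-fold). Il1b had 191 ± 24.2 with vehicle and 134 ± 11 with BAM15, under 2-fold (adjusted p = 4.41e-04, edgeR). Tnf was not analysed here.

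Toll-like receptor genes also split. Of 28 tested genes of IL-1, TNF and Toll-like receptor signaling, 1 rose and 1 fell. Tlr2, a receptor for bacterial lipoproteins, rose from 76.1 ± 18.4 to 207 ± 40.9 (log2 fold change 1.44, Benjamini-Hochberg adjusted p = 3.75e-06 by edgeR's quasi-likelihood test), and Tlr6, a partner of TLR2 in dimers, fell from 325 ± 42.3 to 125 ± 14.1 (log2 fold change -1.38, adjusted p = 2.65e-08, edgeR). The leukocyte marker Cd68, a lysosomal protein abundant in macrophages, had 13.7 ± 3.84 with vehicle and 64.2 ± 8.53 with BAM15 (log2 fold change 2.22, adjusted p = 8.06e-08, edgeR), and its part in the chemokine and Toll-like receptor values was not tested.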

How the data were processed

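RNA of C2C12 myotubes from 6 BAM15 and 6 vehicle libraries was measured by 3′ QuantSeq. The authors deposited whole-number counts per Ensembl gene without normalization, and a table of normalized signal, in which each value, as tested, was the count over a size factor of its library (0.836 to 1.07, largest relative deviation 4.89e-10). Per the labels the reads were 50 bp forward reads. The study names BlueBee software for alignment and DESeq2 (version 1.22.2 in the submitters' processing notes, which also name GRCm38 and mm10). The aligner, the annotation and the strand setting are not given in the sources used here. A further 11 columns of other samples were not used.

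Counts were analysed in R 4.3.3 with edgeR 4.0.16 (TMM, filterByExpr, robust quasi-likelihood fit with condition as the only term). The filter removed 2383 genes, and the Benjamini-Hochberg adjustment ran over the other 12730. Standard errors are the absolute log2 fold change over the root of the F statistic. Symbols for 2260 of 2293 unnamed identifiers, gene positions and UTRs came from GENCODE M21 (GRCm38). Python 3.11.15, pandas 2.3.3 and matplotlib 3.10.9 were used for sequences and figures. The test was checked on simulated data.

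The members and all gene lists were chosen with earlier results of these data known. The text names all members, a fixed set of partner genes, the called genes of each list (at most 6) and the genes with profiles nearest to Ptgs2 (5) and Cmklr1 (3). Cd68, Ptgis, Relb, Nfkb2, Nfkbiz, Ikbkg, Cyld, Zfp36l1, Mmp13, Cd40, Cxcr6, Ifi44, Mx2, Tap1, Gbp2, Clcf1 and Il11 were named after their values were seen. Some listed genes are not reported here. Alternatives were DESeq2 1.42.0, other scalings (DESeq2 size factors, those of the deposited signal, library size only), no filter, at least 10 counts in every library, no robust moderation, a block for library number, numbers 1 to 3 or 4 to 6 only, other thresholds, and each library left out in turn. No library was a copy of another (chi-square per gene at least 4.98). With 13983725 to 18866728 reads per library, genes with few reads, such as Cxcl1, Ccl2, Il6 and Lif, carry a large counting error.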

Additional observations from a re-analysis of the deposited data

Results flagged for a closer look

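Among 93 groups of 6 libraries examined, 9 had a highest or lowest library whose gap to the next exceeded Dixon's 95% critical value of 0.625. Chance alone gives about 1 in 20 such groups (5%). Of 18 groups of the members, 2 were past it. Il6 in BAM15 library 1 was 29.1 normalized counts, with 17.3 the next highest, and Lif in BAM15 library 5 was 18.8, with 7.0 the next. Both rest on few reads, at most 30 for Il6 and 20 for Lif.

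The other 7 were non-members. Csf1 in BAM15 library 5 was 2093 normalized counts (next 1380), in the library in which Ptgs2, Cxcl1, Ccl2 and Ccl7 were highest, and Csf1 in vehicle library 2 was 388 (next 325). Il33 was 394 in vehicle library 4 and 113 in BAM15 library 6. Tlr6 was 152 and Ptger1 was 18.4 in BAM15 library 2, and Zfp36 was 71.3 in vehicle library 2.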

How the results depend on the processing

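Counts of called genes were 471 higher and 456 lower, and 10 and 7 in the pathway lists. With each library left out in turn they ranged from 457 to 485 and 448 to 483, and from 9 to 12 and 7 to 8. A log2 fold change above 2 left 134 and 55 genes, and 3 and 1 in the lists. Without a base mean threshold 775 genes were higher, and 17 and 11 of the lists were called. Within library numbers 4 to 6, 16 list genes were called higher. The other counts stayed within 1.5 times.

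Single library numbers did not pair the conditions, since the correlation of same-numbered deviations ranged from -0.08 to 0.31. Only 2 of 6 libraries correlated best with their own number. BAM15 libraries 1, 2 and 3 each correlated best with vehicle library 3, and 4, 5 and 6 each with vehicle library 6. The best matches thus stayed within numbers 1 to 3 or 4 to 6, and what these sets stand for is not known. With a replicate block, 465 genes were higher and 468 lower, and 10 and 7 list genes were called.

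Members called higher numbered 2 without BAM15 library 5, within numbers 1 to 3 (Ccl7 lost in both) and with at least 10 counts in every library (Cxcl5 removed), and 5 without a base mean threshold. Members called lower numbered 1 (Cmklr1) at a log2 fold change above 2. Apart from Ccl2, no member changed direction. Of 788 fold changes of named genes under alternatives, 8 gained and 7 lost an adjusted p below 0.01, and none reversed. The highest adjusted p over the alternatives, by edgeR, was 0.0369 for Zfp36 within numbers 1 to 3, and 0.0190 for Ptgs1 and 0.0675 for Il1b within numbers 4 to 6. Depth limits Cxcl1, Ccl2, Il6, Lif and Ppbp, which had few reads with vehicle.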

Other observations

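Several listed inflammatory genes had large differences but a base mean under 50, and they were singled out after their values were seen. Mmp13, a collagenase, had 0.843 ± 1.20 normalized counts with vehicle and 42.5 ± 9.11 with BAM15 (Benjamini-Hochberg adjusted p = 3.32e-08 by edgeR's quasi-likelihood test). It had 0 to 3 reads per vehicle library, 5 in all, and 33 to 59 per BAM15 library. Mmp13 thus passed the filter on low counts only through the BAM15 libraries, and its adjusted p adds nothing to its selection by value. Cd40, a costimulatory receptor, had 16.2 ± 4.18 and 72.0 ± 13.0 (log2 fold change 2.14, adjusted p = 1.69e-07, edgeR). Cxcr6, the receptor of the chemokine CXCL16, had 36.0 ± 5.38 and 6.18 ± 3.75 (log2 fold change -2.53, adjusted p = 4.63e-06, edgeR). It had 30 to 44 reads per vehicle library and 1 to 10 per BAM15 library, so it passed the filter only through the vehicle libraries. The adjusted p-values of Cd40 and Cxcr6 add nothing to their selection by value either. In these 3 genes the groups did not overlap.

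Interferon-stimulated genes gave 0 calls among 21 tested by edgeR and by DESeq2, with 7 higher and 3 lower at an unadjusted p below 0.05 and a median log2 fold change of 0.19. In 5 of the 21 every BAM15 library lay above every vehicle library, and in 2 below, beside 17.1% and 17.0% of all tested genes. At low counts, and named after their values were seen, Ifi44 (3.68 ± 2.56 to 19.2 ± 4.91), Mx2 (4.05 ± 3.16 to 17.0 ± 1.83) and Tap1, a peptide transporter of antigen presentation (4.80 ± 3.49 to 20.8 ± 6.12), were higher. Gbp2, a guanylate-binding protein (26.2 ± 5.63 to 7.19 ± 4.60), was lower, and each of these was without overlap of the groups.

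In the IL-6 family, edgeR called 0 of 4 tested cytokine genes, with 2 higher and 1 lower at an unadjusted p below 0.05, and DESeq2 called 1. Clcf1, a cytokine of this family, had 72.7 ± 16.6 with vehicle and 196 ± 136 with BAM15 with overlapping groups (adjusted p = 0.0151, edgeR). Il11 had 52.9 ± 6.15 and 77.0 ± 9.45, an increase under 2-fold without overlap (adjusted p = 0.00145, edgeR). Clcf1 and Il11 are named after their values were seen, so nothing is read from their adjusted p-values.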
